A study of Mus musculus with 8 samples.

Results

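The genes described here encode the contractile apparatus: muscle and cytoplasmic actin partners, myosins, tropomyosins, troponins, smooth muscle proteins and the factors that switch them on. They are the rows of the authors' deposited knockout table whose symbol is on a fixed list of 46 genes. The table lists 17441 genes and holds 44 of the 46, and Ttn and Myog are not analysed here. By the site of expression they are usually named for, 13 are called smooth muscle genes, 17 striated muscle genes (of 19 named) and 14 broadly expressed genes. These names are labels. Cald1 and Myl9, placed with smooth muscle, ranked 38 and 141 of 17441 genes by wild-type value. Desmin, which is made in every type of muscle, was placed with smooth muscle.

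Primary mouse embryonic fibroblasts from embryos at day 18, grown to passage 2, were compared between wild-type littermates and Cbx2-/- embryos that carry a targeted deletion of Cbx2, a chromodomain subunit of polycomb repressive complex 1. RNA was sequenced from 2 libraries per genotype, each from its own portion of cells. The labels do not say whether a genotype's libraries stem from different embryos or from 1 culture, so the p-values measure only the spread between these libraries, which may be technical. Accessibility libraries of the same genotypes are not analysed here.

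Fibroblasts in culture build stress fibres, bundles of actin filaments pulled by non-muscle and smooth muscle myosin and covered by tropomyosin, calponin, caldesmon and transgelin. When actin filaments form, the cofactors of the MRTF family enter the nucleus and join serum response factor (SRF), which binds the CArG box in front of many contractile genes. Myocardin is the SRF cofactor of differentiated smooth muscle. In striated muscle the same filaments are arranged in sarcomeres, where troponin and tropomyosin gate contraction by calcium, under the control of MyoD, myogenin and the MEF2 factors.

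Single genes are described by the value, log2 fold change (knockout over wild type) and adjusted p-value that the authors' deposited table lists, the last from a DESeq2 test adjusted over all genes. The table gives 1 normalised read value per genotype, not 1 per library, so these values carry no SD. In genes with few reads the values of the genotypes are pulled toward each other. Myocd, for example, was listed at 26.3 and 15.9, while its scaled mean reads were 27.7 in wild type and 14.5 in knockout. Values and sums of low genes therefore understate the difference in reads. The standard error (SE) of a fold change was implied from the deposited p. A gene was called higher or lower where the deposited adjusted p was under 0.05. For genes with a mean under 50 the whole reads of each library could be recovered. They are given for the contractile genes in that range and for some markers. Wild-type values of the table sum to 19428299 and knockout values to 18910077. In the authors' deposited table Cbx2 itself was at 346.8 in wild type and 29.0 in knockout (log2 fold change -3.58, adjusted p 2.55e-44). All 15 fibroblast markers were listed, with summed values of 733701 in wild type and 661699 in knockout, and 10 of them were lower and 1 higher. Of the 13 with a mean at or above 1000, 10 were called (76.9%), where 16.2% of all genes in that range were. Of 17 macrophage markers 10 were higher and none lower, and the values of all 17 together came to 707 for wild type and 2030 for knockout. Of the 12 with a mean under 50, 6 were called (50%), where 1.65% of all genes in that range were. Defining macrophage markers were low but not at 0: Ptprc was at 5.55 in wild type and 15.5 in knockout, and C1qa at 3.47 and 7.30. Ptprc had 3 and 3 wild-type reads against 21 and 16 from knockout, and C1qa 1 and 2 against 10 and 9. Neither was called (adjusted p 0.064 and 0.328 by the authors' DESeq2 test). C1qb, with 3 and 8 against 3 and 1 reads, and Aif1, with 3 and 3 against 0 and 2, were lower in value and not called. Csf1r, at 245 in wild type and 257 in knockout, was not called either. The part of macrophage RNA in the contractile values was not tested. In such bulk samples, fewer cells of a type and less RNA per cell cannot be told apart.

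Among the contractile genes, Acta1, Des and Myh11 were clearly lower in knockout, Actg2 and Tpm1 were higher, and abundant stress fibre genes such as Acta2, Tagln and Myh9 did not pass the test. In all, 2 of the 44 were higher and 9 lower in knockout, or 25.0%, against 7.78% of all genes (3.48% higher and 4.3% lower). The share of called genes was larger among abundant genes. Of genes with a mean at or above 1000, 16.2% were called (5.51% higher and 10.7% lower), against 11 of the 26 contractile genes in that range (42.3%). Of genes with a mean at or above 10000, 32.9% were called (7.84% higher and 25.1% lower), against 5 of 16 contractile genes (31.2%), a share near the background. None of the 3 contractile genes with a mean from 50 to 1000 was called by DESeq2 (0 at an unadjusted p under 0.05), where 8.27% of all genes were (4.31% higher and 3.96% lower). The authors' own call, which also asks for a 2-fold change, took in Acta1 and Des, both lower, against 1.69% of all genes. The median log2 fold change was -0.08 over the 44 genes, -0.03 over all genes with a mean at or above 1000 and 0.00 over the whole table.

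**Figure D1:**
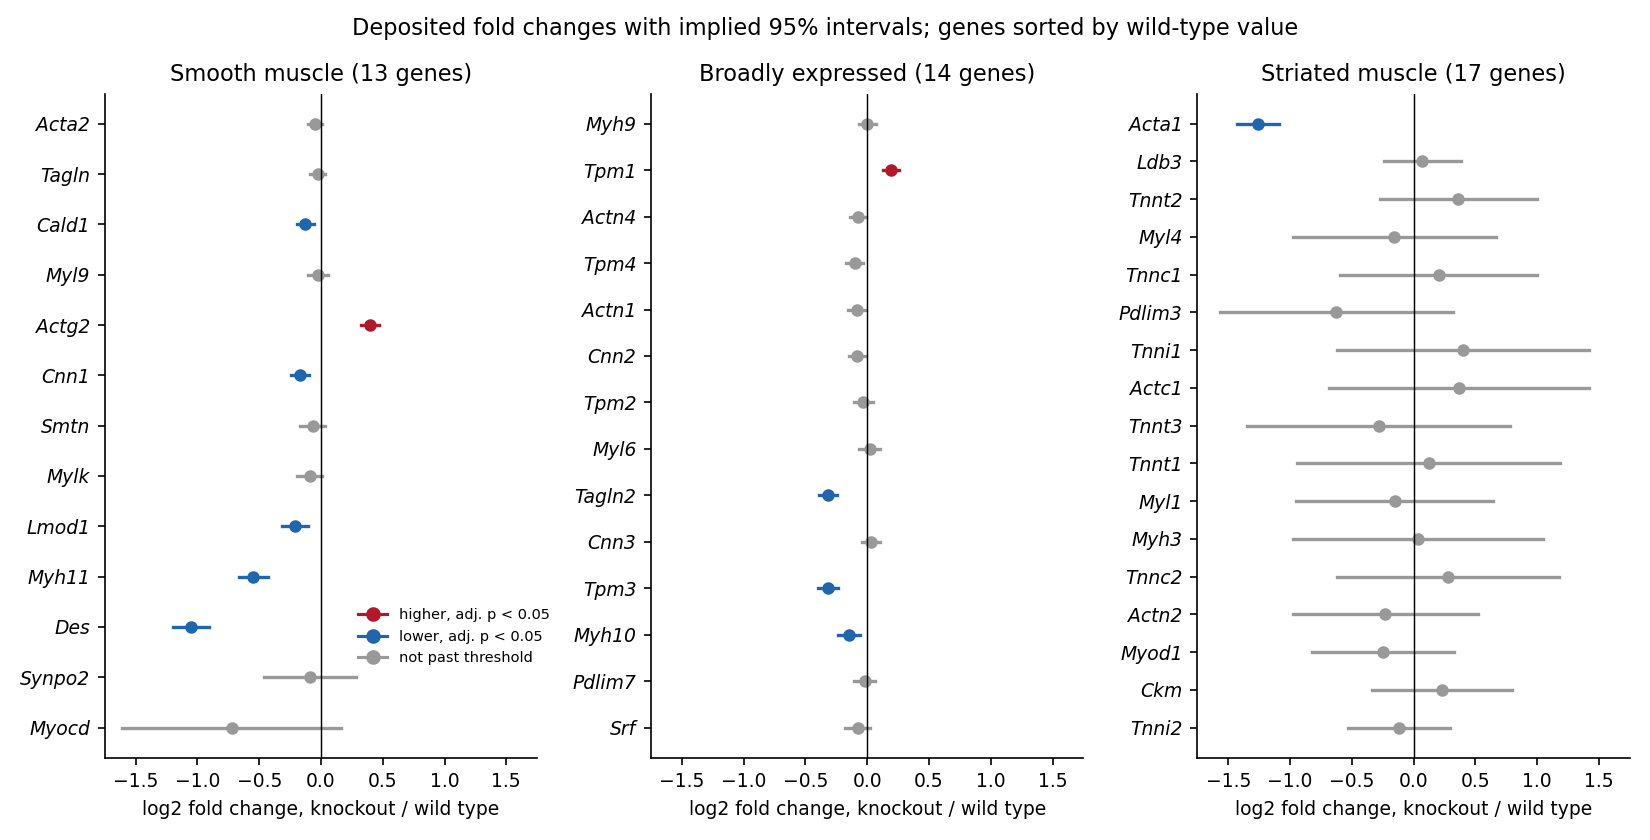
Deposited log2 fold change (x axis) of each of the 44 genes, with lines for the 95% interval implied by the deposited p, in 3 panels by class, genes sorted by wild-type value from top to bottom. Acta1 (-1.26) and Des (-1.05) lie farthest to the left among called genes, and Actg2 (0.40) and Tpm1 (0.19) are the called genes to the right of 0. The striated genes other than Acta1 have wide intervals.

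The sequences bear on SRF, the shared regulator of many of these genes. RefSeq promoter windows (GRCm38.p6, 250 bases before to 50 after a start) were found for 39 of the 46 genes, 45 windows in all. A CArG box, searched by its consensus, which reads alike on both strands, was present in the windows of 7 genes: Acta1, Actc1, Myl9, Cnn2, Myl6, Ldb3 and Srf. That is 17.9% of these genes, against 1.81% of all genes with a window, and 17.8% of these windows against 1.63% of all windows. The stretches below lie before the gene's annotated span and are printed 5′ to 3′ on the gene's strand, with the CArG box in capitals. They show the gene with the largest fall in fold change beside 3 CArG genes that were not called.
Acta1: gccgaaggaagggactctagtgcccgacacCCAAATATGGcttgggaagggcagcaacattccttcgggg
Actc1: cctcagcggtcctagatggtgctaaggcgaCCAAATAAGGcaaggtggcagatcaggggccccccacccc
Myl9: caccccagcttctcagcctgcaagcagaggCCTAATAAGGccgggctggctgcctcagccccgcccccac
Cnn2: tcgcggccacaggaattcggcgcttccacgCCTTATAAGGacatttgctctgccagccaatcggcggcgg

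The Acta1 stretch is chr8:123894809-123894878 on the minus strand, with the box at -73 to -64 from the start. Actc1 is chr2:114052883-114052952 (minus strand), with the box at -47 to -38. For Myl9 the stretch is chr2:156775273-156775342 (plus strand) and the box lies at -161 to -152. The Cnn2 stretch is chr10:79988514-79988583 (plus strand), with the box at -56 to -47. Srf has a pair of boxes in its window, CCATATAAGG at -82 and CCATAAAAGG at -62 from the start. Of the 7 CArG genes, Acta1 was called, and the other 6 were not. Of the 30 other tested genes with a window 8 were called. Among all genes the share was 7.78%. The groups were not matched for level. Of the CArG genes, Actc1 had a mean under 50 and Ldb3 a mean from 50 to 1000, where 1.65% and 8.27% of all genes were called. A relation of the box to the calls was not tested. A match is a string of letters and not a measured binding site. Only exact matches to the consensus were counted, so a box that departs from it was missed. Windows of Actg2, Tagln, Myh11, Myocd, Tnnt3, Tnni2 and Myod1 were not analysed here.

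Among the actins, the largest changes ran in opposite directions. Acta1, the skeletal muscle alpha-actin (gene 11459, chr8:123891758-123894775, GRCm38.p6), was listed at 1526 for wild type and 637 for knockout. It fell by 58.2%, a log2 fold change of -1.26 (SE 0.09, 95% interval -1.43 to -1.09, adjusted p 2.47e-44 by the authors' DESeq2 test in the authors' deposited table). This was the largest fall of all 44 genes by fold change, and it took Acta1 from rank 2733 to rank 5567 of the table. Actg2, the gamma-actin of enteric smooth muscle (gene 11468, chr6:83512909-83536251), went the other way, from 14950 to 19663. It rose by 0.40 on the log2 scale (SE 0.04, adjusted p 1.53e-25 in the authors' deposited table), a gain of 31.5%.

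Acta2, the smooth muscle alpha-actin that marks myofibroblasts, stood at 135878 in wild type and 131483 in knockout. Its log2 fold change of -0.05 in the authors' deposited table did not pass the threshold (SE 0.03, 95% interval -0.11 to 0.01, adjusted p 0.568). Acta2 ranked 4 of 17441 genes by value in wild type and 5 in knockout. Actc1, the cardiac alpha-actin, had 6 and 6 wild-type reads against 10 and 10 from knockout. Those reads do not overlap between genotypes, but they are few, and the deposited adjusted p of Actc1 was 0.931.

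Per kilobase of the length given in the table, Acta2 made up 81.3% of the normalised reads of the 4 muscle actin genes in wild type and 77.2% in knockout. Actg2 held 17.1% and 22.1%, Acta1 1.58% and 0.65%. The sum of the 4 genes was 65013 normalised reads per kilobase in wild type and 66220 in knockout, a log2 ratio of 0.03. The summed level thus differed little, while the shares of Acta1 and Actg2 in it moved in opposite directions. With the cytoplasmic actins Actb and Actg1 the summed level was 199090 in wild type and 194132 in knockout per kilobase. Actb, named after its value was seen, fell slightly (log2 fold change -0.11, adjusted p 0.0186 in the authors' deposited table). Actin coding sequences are closely alike, so reads could be divided between the genes in the authors' counting. Acta1 stood at 1030 per kilobase and Acta2 at 52829 in wild type, and the part of shared reads in the Acta1 value was not tested.

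**Figure D2:**
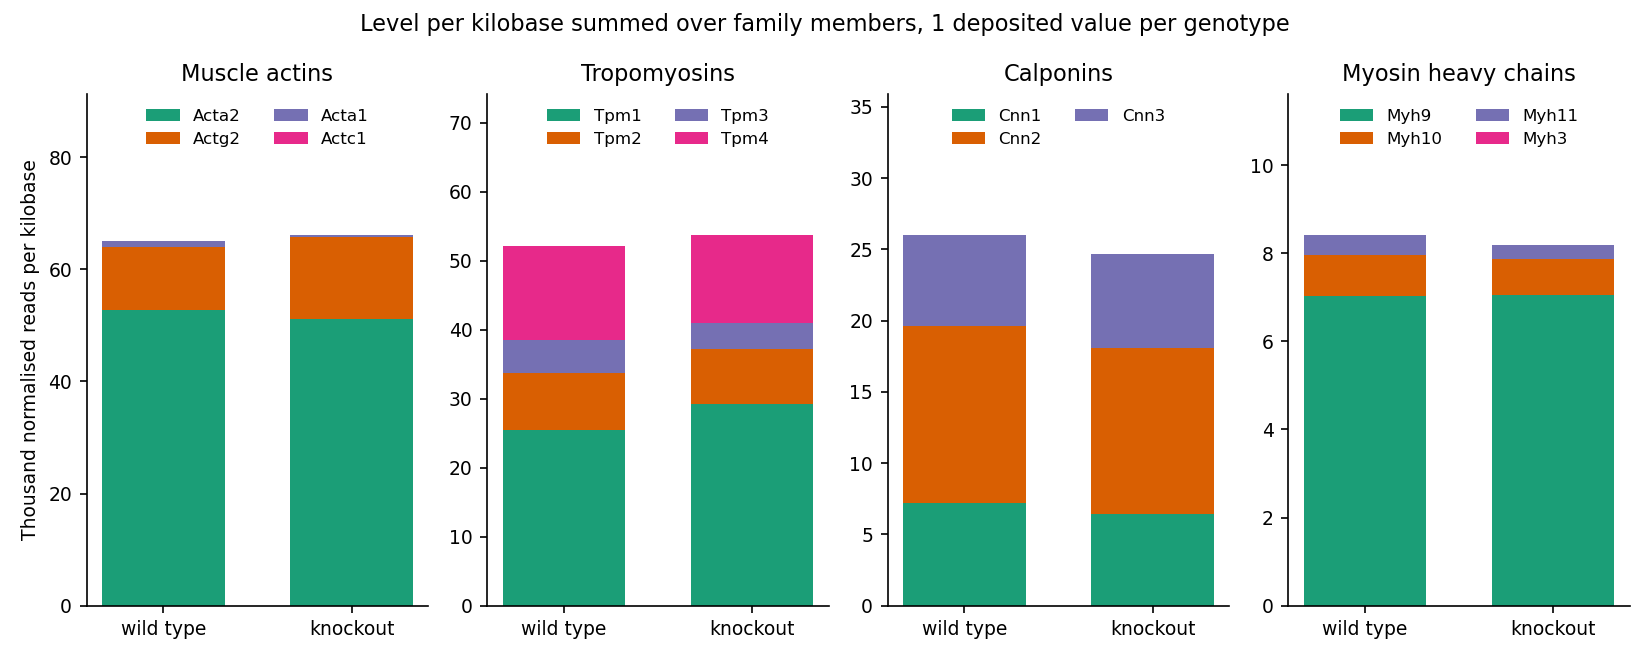
Level per kilobase (y axis, in units of 1000 normalised reads per kilobase, axes from 0) of the genes of 4 families, stacked, for wild type and knockout; each segment is the deposited value of 1 gene with no error, divided by its deposited length. Totals stay close between genotypes in all 4 families, while Actg2 and Tpm1 take a larger share in knockout and Acta1, Tpm3 and Myh11 a smaller one.

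Among the smooth muscle genes, Des and Myh11 fell most and Actg2 rose. Of 13, 5 were lower and 1 (Actg2) higher, or 46.2% called, against the 7.78% of all genes and 16.2% of genes with a mean at or above 1000. Of the 6 with a mean at or above 10000, 3 were called, where 32.9% of all genes were. By sign, 12 of the 13 fold changes were below 0, with a median of -0.09. Of the 11 with a mean over 1000, 10 were below 0, beside 2404 of all 4049 genes with a mean at or above 1000. The sign of the class as a whole was not tested. The largest fall in the class was that of Des, the muscle intermediate filament desmin (gene 13346, chr1:75360292-75368579), from 2053 to 990. Its log2 fold change was -1.05 (SE 0.07, 95% interval -1.20 to -0.91, adjusted p 4.56e-42 in the authors' deposited table), and it fell by 51.8%.

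Myh11, the smooth muscle myosin heavy chain and a marker of the differentiated contractile state (gene 17880, chr16:14194527-14292188), stood at 3101 in wild type and 2120 in knockout. Its log2 fold change was -0.55 (SE 0.06, adjusted p 7.97e-18 in the authors' deposited table). Lmod1, leiomodin, which starts actin filaments in smooth muscle (chr1:135324813-135368065), fell from 3726 to 3228 (log2 fold change -0.21, adjusted p 0.00248 in the authors' deposited table). Cnn1, the smooth muscle calponin that binds actin and slows myosin (chr9:22099221-22109221), fell from 14369 to 12766 (-0.17, adjusted p 1.11e-04 in the authors' deposited table). Cald1, caldesmon (chr6:34598495-34775469), fell from 38165 to 34947 (-0.13, adjusted p 0.00603 in the authors' deposited table). Lmod1 fell by 13.3%, Cnn1 fell by 11.2% and Cald1 fell by 8.43%, less than Des and Myh11. The call of Cald1 was lost when the implied SE was enlarged by 20%.

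The other smooth muscle genes with a mean above 1000 were Acta2, Tagln, Myl9, Smtn and Mylk, and none of these 5 was called by the authors' DESeq2 test (0 also at an unadjusted p under 0.05). Tagln, transgelin or SM22, an early smooth muscle protein, had values of 47204 and 46291 in wild type and knockout (log2 fold change -0.03, 95% interval -0.09 to 0.04 in the authors' deposited table). Myl9, the regulatory light chain whose phosphorylation starts contraction, had 15159 and 14927 (-0.02, interval -0.11 to 0.06 in the authors' deposited table). Mylk, the kinase that phosphorylates it, had 4418 and 4146 (-0.09, interval -0.19 to 0.01 in the authors' deposited table). Smtn, smoothelin, had 4451 and 4249 (-0.07, interval -0.17 to 0.03 in the authors' deposited table). These intervals leave room for falls of at most 0.19 on the log2 scale, so a fall of the size seen in Myh11 or Des lies outside them. A value that misses the threshold does not show that the genes were equal.

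Levels of these genes differed widely. Per kilobase, Acta2 stood at 52829 normalised reads in wild type, Tagln at 29763, Myl9 at 13997, Actg2 at 11149, Cald1 at 9458 and Cnn1 at 7232. Next came Smtn at 1331, Lmod1 at 945, Des at 670, Mylk at 566 and Myh11 at 470. The genes with the deepest falls, Des and Myh11, were thus among the less abundant of the smooth muscle genes, and stood at 323 and 322 per kilobase in knockout. Synpo2, an actin-bundling protein of smooth muscle Z-disc-like structures, was at 214 and 202 in total value and was not called (adjusted p 0.943 in the authors' deposited table).

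Myocd encodes myocardin, the smooth muscle cofactor of SRF, and was barely expressed. It had 30 and 24 wild-type reads against 14 and 16 from knockout. Both knockout libraries were below both wild-type libraries, without overlap. The deposited log2 fold change of -0.72 did not pass the threshold (SE 0.45, 95% interval -1.61 to 0.16, adjusted p 0.552 in the authors' deposited table). The log2 ratio of its mean reads, scaled by library size and with 0.5 read added, was -0.91. Such separation, judged on reads not scaled by library size, is common among low genes. It was seen in 32.8% of the 6126 genes with a mean under 50, and in 6 of the 15 contractile genes in that range.

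**Figure D3:**
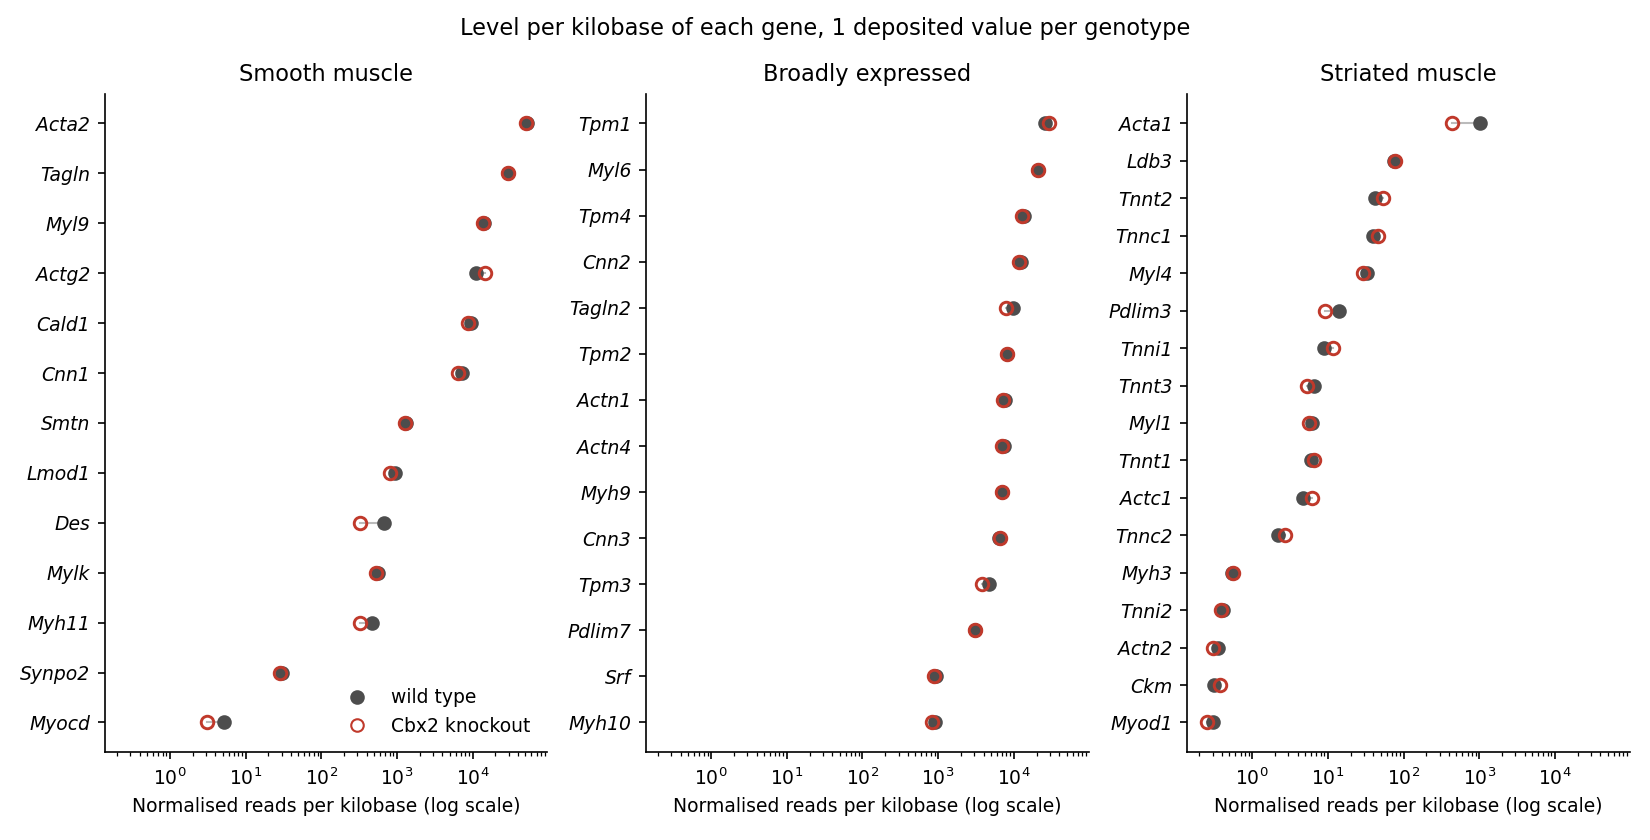
Level per kilobase (x axis, log scale) of each gene in wild type (filled circles) and knockout (open circles), 1 deposited value per genotype without error, in 3 panels by class. Smooth and broadly expressed genes except Synpo2 and Myocd lie above 300 normalised reads per kilobase, while the striated genes other than Acta1 lie below 100. Gaps are widest for Acta1 and Des, then for Myocd, Pdlim3 and Myh11, of which Myocd and Pdlim3 were not called.

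The broadly expressed genes build stress fibres in most cell types. Tpm1 rose, Tagln2, Tpm3 and Myh10 fell, and the other 10 did not pass the test. Of 14, 1 was higher and 3 were lower (28.6% called, against 16.2% of all genes with a mean at or above 1000, a range that holds all 14). Of the 10 with a mean at or above 10000, 2 were called (20%), below the 32.9% of all genes in that range. At an unadjusted p under 0.05 the count was 8, with Actn4, Tpm4, Actn1 and Cnn2 added, all with fold changes below 0. The median log2 fold change was -0.08. Among tropomyosins, which coat actin filaments, Tpm1 rose and Tpm3 fell. Tpm1 (gene 22003, chr9:67022590-67049672) went from 43101 to 49284, a log2 fold change of 0.19 (SE 0.03, adjusted p 2.92e-07 in the authors' deposited table). Tpm3 (chr3:90072651-90100902) went from 10538 to 8453, a log2 fold change of -0.32 (SE 0.04, adjusted p 2.93e-13 in the authors' deposited table).

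Tpm4, from 28570 to 26638, and Tpm2, from 17744 to 17371, did not pass (adjusted p 0.0601 and 0.931 in the authors' deposited table). Tpm4 passed, as lower, where the adjustment was made only over genes with a mean of 10 or more, or of 50 or more. Per kilobase, Tpm1 made up 48.9% of tropomyosin reads in wild type and 54.2% in knockout, Tpm4 26.3% and 23.8%, and Tpm3 8.98% and 6.98%. Their sum differed by only 0.04 on the log2 scale. Each of these genes makes several muscle and non-muscle isoforms, which the table does not separate.

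Tagln2, the transgelin of non-muscle cells (chr1:172500246-172507375), fell from 13587 to 10899, a log2 fold change of -0.32 (SE 0.04, adjusted p 6.98e-15 in the authors' deposited table), while Tagln, above, was not called. Among the calponins, Cnn2 (22300 and 21038) and Cnn3 (12868 and 13140), the forms of non-muscle cells, were not called (adjusted p 0.1396 and 0.931 in the authors' deposited table), beside the small fall of Cnn1.

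Of the non-muscle myosin heavy chains, Myh9, the main motor of stress fibres, had values of 52334 and 52391, with a log2 fold change of 0.00 (95% interval -0.07 to 0.07 in the authors' deposited table). Myh10, the second non-muscle chain, fell from 7142 to 6449 (chr11:68691915-68816626; log2 fold change -0.15, adjusted p 0.0204 in the authors' deposited table), a call that was lost at an adjusted p of 0.01 and with an SE enlarged by 20%. Per kilobase, Myh9 held 83.5% of heavy chain reads in wild type and 86.0% in knockout, Myh10 10.9% and 10.1%, and Myh11 5.58% and 3.92%. Myl6, the essential light chain shared by smooth and non-muscle myosin, was at 14448 and 14641 and was not called.

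The alpha-actinins Actn1 (28563 and 26965) and Actn4 (28580 and 27151), which crosslink actin filaments, were both slightly lower in value, with log2 fold changes of -0.08 and -0.07, and did not pass (adjusted p 0.186 and 0.202 in the authors' deposited table). Pdlim7, an adaptor that ties kinases to actin bundles, was at 6536 and 6446. Srf, the transcription factor itself, was at 3805 and 3607, with a log2 fold change of -0.08 (95% interval -0.18 to 0.02, adjusted p 0.621 in the authors' deposited table). Over all 15 contractile genes with a mean above 1000 that were not called, the difference in value ran from -6.76% (Tpm4) to 2.11% (Cnn3).

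Most striated muscle genes other than Acta1 had few reads in both genotypes. Of 17, 1 was lower and none higher by the authors' DESeq2 test (5.88%, against the 7.78% of all genes), and Acta1 was also the only one at an unadjusted p under 0.05. Their mean was under 50 for 14 of the 17, where 1.65% of all genes were called (1.16% higher and 0.49% lower). Ldb3, a Z-disc protein also known as Cypher or ZASP, was the most abundant after Acta1, at 276 in wild type and 290 in knockout (log2 fold change 0.07, SE 0.16 in the authors' deposited table). Tnnt2, the cardiac troponin T, followed with 50.3 and 64.6 (0.36, 95% interval -0.27 to 1.00, adjusted p 0.844 in the authors' deposited table).

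The master regulator of skeletal muscle was at the limit of detection. Myod1 had 1 and 1 wild-type reads against 0 and 0 from knockout. Ckm, the muscle creatine kinase, had 0 and 0 wild-type reads against 1 and 1 from knockout. Actn2, the sarcomeric alpha-actinin, had 1 and 2 wild-type reads against 1 and 0 from knockout. With so few reads no difference was detectable at this depth.

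Troponins, the calcium switch of the sarcomere, gave at most 37 reads in a library, Tnnt2 aside. Tnnc1, the slow and cardiac troponin C, had 25 and 28 wild-type reads against 30 and 37 from knockout, without overlap as counted. Once divided by the library size factors, the higher wild-type library lay above the lower knockout library, so the genotypes overlapped. Tnni1, the slow skeletal troponin I, had 8 and 9 wild-type reads against 19 and 9 from knockout, so the knockout libraries differed from each other and 1 of them equalled a wild-type library. Tnnt1 had 4 and 7 wild-type reads against 3 and 11 from knockout, and Tnnt3 had 6 and 8 against 8 and 2. The Tnnt3 gene overlaps Prr33, listed at 16.2 and 19.3, and strand use in the counting is not given, so the Tnnt3 reads are uncertain. For the fast forms, Tnnc2 had 1 and 1 wild-type reads against 2 and 3, and Tnni2 had 0 and 1 against 0 and 0. No troponin gene was called.

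Myosin genes of embryonic and developing muscle were as low. Myh3, the embryonic heavy chain, had 1 and 5 wild-type reads against 4 and 3 from knockout. Myl4, the atrial and embryonic light chain, had 31 and 26 wild-type reads against 31 and 22 from knockout; the gene overlaps Cdc27, at 2186 and 2078, and strand use in the counting is not given in the sources used here, so its reads are uncertain. Myl1 had 0 and 12 wild-type reads against 5 and 2 from knockout. The wild-type libraries thus spread more widely than the genotypes for this gene. Pdlim3, a Z-disc PDZ-LIM protein, had 27 and 19 wild-type reads against 19 and 8 from knockout, with a deposited log2 fold change of -0.62 that did not pass (adjusted p 0.736 in the authors' deposited table).

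**Figure D4:**
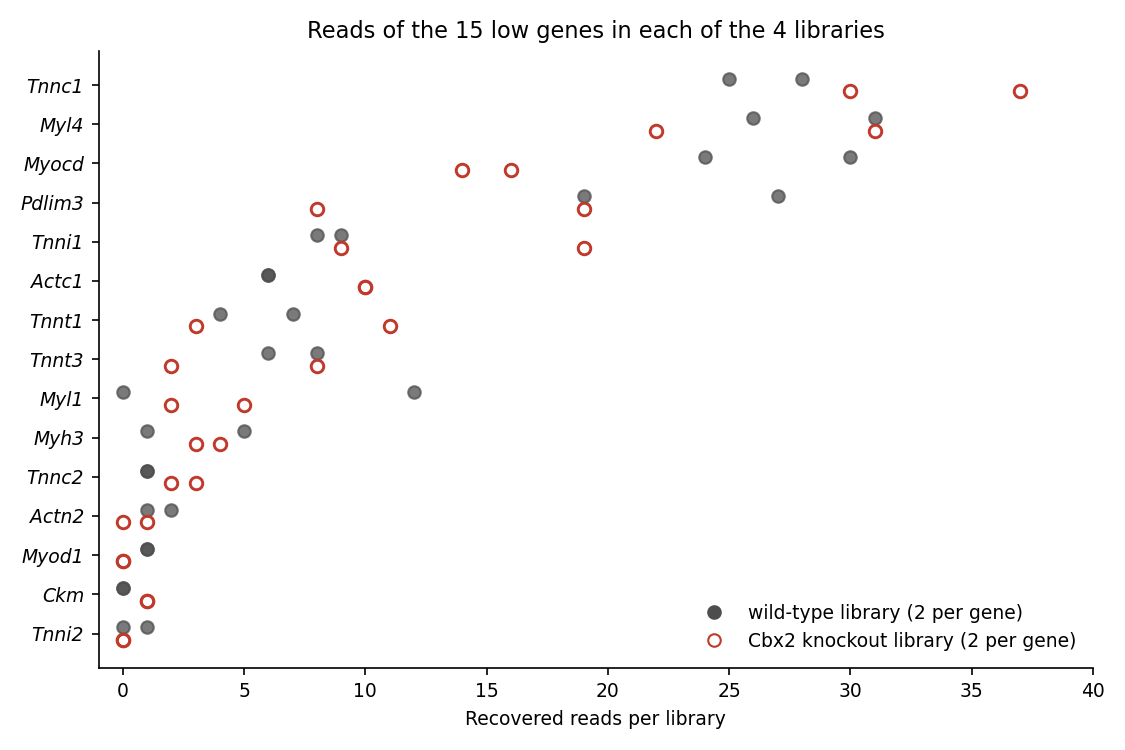
Recovered reads (x axis) of the 15 genes with a mean under 50 in each of the 2 wild-type (filled) and 2 knockout (open) libraries; equal counts of a genotype lie on top of each other. No library has more than 37 reads of any of these genes. By reads not scaled by library size, Myocd, Tnnc1, Actc1, Tnnc2, Myod1 and Ckm separate by genotype and the other 9 do not. Of all low genes 32.8% separate by the same rule. Tnnc1 does not separate once its reads are scaled by library size.

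Markers of muscle cell types place these levels. Of 10 skeletal myoblast markers 5 were listed, and all except Des had means under 50; Cdh15 had 12 and 9 wild-type reads against 6 and 15 from knockout. Myog, Myf5, Myf6, Pax7 and Msc are not analysed here. Of 10 cardiac markers, all listed, wild-type values summed to 116 and knockout values to 126, and none was called by the authors' DESeq2 test. Of 10 smooth muscle and mural cell markers, all listed, 6 were lower and 2 higher (against 7.78% of all genes called, and 16.2% of those with a mean at or above 1000), with summed values of 29552 and 25093. This list shares Myocd, Myh11, Cnn1 and Lmod1 with the genes above. Its other genes, Rgs5, Notch3, Mcam, Abcc9, Kcnj8 and Cspg4, are also on the list of further smooth muscle and mural cell genes below. The counts of these lists are therefore not separate observations.

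Other genes of the same pathways, from lists chosen with earlier results of these data known, moved in both directions. The called shares of these lists are therefore a description only. Of 34 further smooth muscle and mural cell genes 5 were higher and 8 lower (38.2% called, against 7.78% of all genes), with a median log2 fold change of -0.05. Of the 14 with a mean at or above 1000, 8 were called (57.1%, against 16.2%). Notch3, the Notch receptor of mural cells, fell from 1167 to 400 (log2 fold change -1.54, adjusted p 6.23e-45 in the authors' deposited table), and Pdgfrb, the platelet-derived growth factor receptor that recruits them, from 8891 to 6546 (-0.44, adjusted p 8.84e-20 in the authors' deposited table). The small heat shock proteins Hspb1 (0.46) and Cryab (0.53), which bind desmin and actin filaments in muscle, rose in the authors' deposited table. Of the other small heat shock proteins on that list, named after their values were seen, Hspb6 fell (-0.36, adjusted p 1.28e-04 in the authors' deposited table), and Hspb7 (0.18) and Hspb8 (0.04) did not pass. Of the other mural markers, named after their values were seen, Rgs5 (-1.10) and Cspg4 (-0.23) fell, and Mcam (-0.11) did not pass. Kcnj8 (1.09) and Abcc9 (0.96), the subunits of a potassium channel of mural cells, rose in the authors' deposited table.

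Of 42 genes of cytoplasmic actin, focal adhesions and SRF targets 4 were higher and 10 lower (33.3% called, against 7.78% of all genes), with a median of -0.05. Of these, 26 had a mean at or above 10000, and 9 of the 26 were called (34.6%), near the 32.9% of all genes in that range. Fscn1, the actin bundler fascin (-0.23), and Tln2, talin-2 (-0.38), fell, and Tmsb10, an actin monomer binder (0.29), and Pdlim4 (0.69) rose in the authors' deposited table.

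Of 30 regulators of SRF, myogenic and smooth muscle programmes 2 were higher and 5 lower (23.3% called, against 7.78% of all genes). With a mean from 50 to 1000, 4 of 11 were called (8.27% of all genes in that range), and with a mean at or above 1000, 2 of 10 (16.2% of all genes). Hand2, a heart and limb factor, fell from 255 to 69.9 (-1.86), Gata6, a factor of heart and vascular smooth muscle, from 206 to 116 (-0.83), and Prrx1, a limb mesenchyme factor, from 11138 to 9754 (-0.19) in the authors' deposited table. In the authors' deposited table Klf5 rose from 228 to 382 (0.74). Of the MRTF cofactors, named after their values were seen, Mkl2 (MRTF-B) fell from 1005 to 826 (-0.28, adjusted p 0.0414) and Mkl1 (MRTF-A) went from 3618 to 3332 (-0.12, adjusted p 0.272) without passing in the authors' deposited table. Of 53 further sarcomere and striated muscle genes 45 had means under 50, a range where 1.65% of all genes were called. By the authors' DESeq2 test 1 (1.89%, against 7.78% of all genes) was lower and none higher (4 at an unadjusted p under 0.05). That gene was Atp2a2, the calcium pump SERCA2, which is made in most cells (10247 to 9090, log2 fold change -0.17, adjusted p 5.61e-04 in the authors' deposited table).

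**Figure D5:**
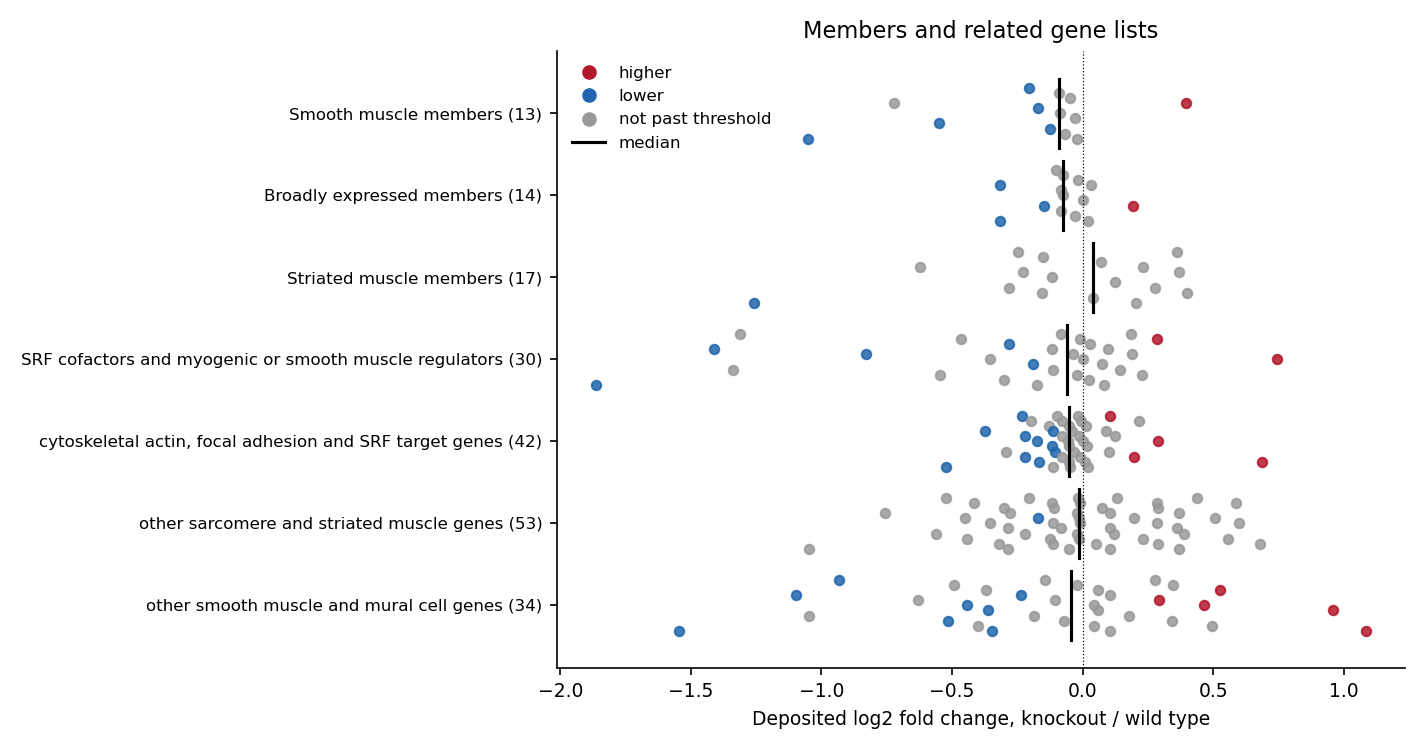
Deposited log2 fold change (x axis) of each gene of the 3 classes and of 4 related lists (rows, with the number of genes in the table); red and blue points were called higher and lower, grey points were not called, and black bars are medians. Medians of all 7 rows lie between -0.09 and 0.04, with called genes on both sides of 0 in 5 of the rows.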

How the data were processed

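Primary fibroblasts from wild-type and Cbx2 knockout embryos (embryonic day 18, passage 2) were profiled by RNA-seq, 2 libraries per genotype at about 4.62 Gb each, per the labels' protocols. Per the submitters' processing notes, the tools were DESeq2, RSEM, Bowtie2 and HISAT2 and the build was mm10. Their versions and roles, and strand use, were not given in the sources used here. In 1 table the authors deposited 1 normalised read signal per genotype, a log2 fold change, a p-value and an adjusted p-value for each of 17441 genes. The log2 fold change equals the log2 ratio of the columns to within 9.13e-09, and it is pulled toward 0 in genes with few reads. The values of both columns are thereby pulled toward each other in such genes. The mean of both columns is a sum of whole reads divided by library size factors (1.01 and 0.935 in wild type, 1.03 and 1.03 in knockout). For all 6126 genes with a mean under 50 exactly 1 set of reads matched within 6e-09, and 0.489% of shifted values had a match. The order of libraries within a genotype is unknown. Above that mean only the value per genotype is known.

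A gene was called at a deposited adjusted p under 0.05. An SE was implied as the fold change divided by the normal quantile of the deposited p. Levels between genes were compared per kilobase of the deposited length. Values were computed in Python 3.11.15 (numpy 2.4.6, pandas 2.3.3, scipy 1.17.1), and steps were tested on simulated data. All 44 genes matched the RefSeq table of GRCm38.p6 by identifier with the same symbol, and their coordinates come from it. The classes and lists were chosen with earlier results of these data known. All genes on the list may be named, and of each related list up to 4 called genes with the smallest adjusted p. Another related list is not reported here. Alternatives were another threshold, the authors' own 2-fold calls, filters on low values, centring, a larger SE, a pseudocount of 10, Des as a striated gene and leaving out each library where its reads are known.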

Additional observations from a re-analysis of the deposited data

How the results depend on the processing

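The 11 calls became 10 at an adjusted p of 0.01, 9 with the SE enlarged by 20%, and 12 with adjustment over genes with a mean of 10 or more or of 50 or more. Centring on the median fold change of genes above the median mean of 230, a shift of -0.01, changed none of the 44 calls. With the authors' 2-fold calls, which ask for a larger change, 2 genes stayed called, Acta1 and Des: 1 smooth muscle gene, 1 striated gene and 0 broadly expressed genes (8 at an unadjusted p under 0.05 in the DESeq2 test). With Des counted as striated, 2 striated and 5 smooth muscle genes were called. A pseudocount of 10 moved no fold change by more than its SE; the ratio of recovered reads moved it by more in 3 of 12 low genes. Read ratios of 8 of the 15 low genes kept their sign without each library in turn and 7 did not. No paired analysis was possible because the table carries no values by replicate number, and calls could not be repeated without a library for the same reason. Reads under 50 limit the striated genes, where only large differences could pass.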

Other observations

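Further motifs in the RefSeq promoter windows of the contractile genes were counted as a description. The MCAT motif CATTCC, bound by TEAD factors in muscle genes and searched on both strands, was in the windows of 15 of 39 genes (38.5%), against 16.6% of all genes with a window. It was present for Acta1, Acta2, Lmod1, Cald1, Smtn, Mylk, Tagln2, Tpm1 and Myh10, among others. The E-box CANNTG, which reads alike on both strands, was in 36 of 45 windows (80%), against 72.3% of all windows. Their relation to expression was not tested.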
